A study of Mus musculus with 16 samples.

Results

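Trp53, its regulators Mdm2 and Mdm4, and known targets of the p53 protein, 35 of the 20730 genes in the files, were followed in 16 RNA libraries of the mouse striatum. The genes were chosen by name, as a p53 target list, but some were first noticed in these libraries, so their differences between treatments are descriptions and carry no test. The libraries came from whole striata of 8 adult C57BL/6N mice. All 8 mice had received a RiboTag virus, an adeno-associated virus for Rpl22-HA, a hemagglutinin-tagged ribosomal protein expressed in astrocytes. In 4 mice (PMCA mice) a second virus carried hPMCA2w/b, a human plasma membrane pump that exports calcium and so dampens calcium signals, and in the other 4 (control mice) it carried a control protein that the labels do not name. The sources used here do not give the promoters of the viruses, the share of astrocytes reached, the age beyond adult or the time after injection. Each mouse gave an IP library of RNA pulled down with the HA tag, which is meant to be RNA on astrocyte ribosomes, and an input library of the cleared lysate, which is RNA of all striatal cells. The 4 groups of 4 libraries were thus PMCA IP, control IP, PMCA input and control input, and libraries 1 to 4 of a group are numbered in the order of deposit.

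The p53 protein, made from Trp53, is a transcription factor that stays scarce in unstressed cells because the ubiquitin ligase Mdm2, helped by its relative Mdm4, keeps it degraded and inactive. DNA damage, oncogenes, nucleolar stress and other insults release it from Mdm2, and it then binds response elements near its target genes, which stop the cell cycle, start cell death, repair DNA and adjust metabolism. Mdm2 is itself a target, so p53 raises its own inhibitor. In adult brain most neurons and astrocytes do not divide, and p53 there is studied mainly in relation to injury and cell death.

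A p53 response element consists of 2 adjoining half-sites, each with a C and a G around a core of A and T and with purines before and pyrimidines after it. Promoter windows from RefSeq (GRCm38.p6, whose coordinates are those of mm10), each 250 bases before to 50 bases after a transcript start, were found for 27 of the 35 members. The element was searched on both strands, which give the same matches because it is palindromic, with no spacer, with all 4 C and G fixed and with at most 2 other positions differing. It occurred in the windows of 5 members, 18.5% of the 27, of 1 of 42 other p53 targets (2.38%), and of 106 of all 27025 genes with a window (0.392%). With at most 1, 3 or 4 differing positions it occurred in 4, 9 and 10 of the 27 members, and 0 members held a copy with none. The 5 elements are shown so that the letters can be set beside the values of their genes. Capitals mark the fixed C and G.
Cdkn1a (chr17:29090928-29090947, strand +): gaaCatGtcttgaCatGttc
Ckap2 (chr8:22186003-22186022, strand -): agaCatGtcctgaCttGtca
Ccng1 (chr11:40755462-40755481, strand -): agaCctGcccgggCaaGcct
Gtse1 (chr15:85859945-85859964, strand +): gagCaaGttggggCttGcct
Rps27l (chr9:66946296-66946315, strand +): gggCttGttgagaCttGtcc
The Ckap2 element has 2 differing positions and the others 1 each. The elements of Cdkn1a, Ckap2 and Ccng1 begin 51, 203 and 172 bases before the annotated gene start. Those of Gtse1 and Rps27l begin 254 and 1672 bases after it, which is 1 and 117 bases before the start of a later transcript. The Gtse1 element thus runs across that start. A match of letters is not evidence that p53 binds there, and a window without a match says only that these letters are not in it.

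The 250 bases before the gene start of Ckap2 and of Cdkn1a are shown as well, the first because Ckap2 was the member with an element that differed most between treatments and the second because Cdkn1a is the classical p53 target. Capitals mark the element.
Ckap2 (chr8:22185820-22186069, strand -): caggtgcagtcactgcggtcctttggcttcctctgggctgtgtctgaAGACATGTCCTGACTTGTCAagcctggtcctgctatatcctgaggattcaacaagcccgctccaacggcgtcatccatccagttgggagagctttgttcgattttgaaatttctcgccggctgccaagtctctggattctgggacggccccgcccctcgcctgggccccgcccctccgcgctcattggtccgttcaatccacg
Cdkn1a (chr17:29090729-29090978, strand +): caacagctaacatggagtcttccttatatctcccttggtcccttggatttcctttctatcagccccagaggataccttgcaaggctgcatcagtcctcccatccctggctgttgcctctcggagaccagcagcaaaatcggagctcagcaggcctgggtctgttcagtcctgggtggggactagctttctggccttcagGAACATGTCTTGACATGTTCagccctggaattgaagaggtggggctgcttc

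The deposited values are log2 CPM, a gene's reads relative to the reads of its library on a log2 scale, from which whole reads could be recovered. PMCA IP libraries held 48.1 to 55.1 M reads and control IP libraries 46.8 to 58.5 M, while PMCA inputs held 32.3 to 40.9 M and control inputs 33.1 to 40.2 M. The astrocyte label of the IP was checked with 12 astrocyte markers, which summed to 44317 to 52089 CPM in PMCA IP and 32419 to 42524 CPM in control IP, against 3561 to 3779 CPM in PMCA input and 3033 to 3199 CPM in control input. Markers of other cell types were in the IP too, with none at 0 reads in any group. The summed oligodendrocyte markers (10 genes) overlapped between IP and input, at 6209 to 7330 CPM in PMCA IP and 5132 to 11252 CPM in control IP, against 5134 to 6217 CPM in PMCA input and 5649 to 6619 CPM in control input. Neuronal markers (12 genes) summed to 2842 to 3328 CPM in PMCA IP and 3313 to 4727 CPM in control IP, against 6794 to 7123 CPM in PMCA input and 6843 to 7416 CPM in control input. Microglial markers (12 genes) came to 86.1 to 139 CPM in PMCA IP and 67.3 to 86.8 CPM in control IP, against 1764 to 2181 CPM in PMCA input and 1363 to 2075 CPM in control input. Endothelial markers (10 genes) came to 144 to 148 CPM in PMCA IP and 125 to 162 CPM in control IP, against 158 to 191 CPM in PMCA input and 146 to 189 CPM in control input. These sums do not show that 9 of the 10 were called lower in IP than in input and 1 higher, in both treatments. The median log2 difference of the 10 was -3.13 in PMCA mice and -3.74 in control mice. In PMCA against control IP, 4 of 12 astrocyte, 5 of 12 microglial and 3 of 10 endothelial markers were called higher, and 5 of 12 neuronal and 1 of 10 endothelial markers lower. Rpl22, whose count may include the tagged copy, lay at 8.11 ± 0.11 log2 CPM in PMCA IP and 9.80 ± 0.15 in control IP (SD, n = 4), and at 6.72 ± 0.086 in PMCA input and 7.60 ± 0.14 in control input. The summed astrocyte markers were thus higher, not lower, in PMCA IP, and Rpl22 was lower in both fractions; the part of Rpl22 and of the other cell types' RNA in the differences below was not tested. Control 4, whose title and source name carry different animal numbers, and PMCA 3 had high Xist. The Y-linked gene Ddx3y lay at -3.72 log2 CPM in IP and -1.64 in input of control 4, and at -1.9 in both of PMCA 3. It lay at 6.35 to 7.25 in the libraries of the other mice. High Xist with low Ddx3y marks female mice, so each treatment held mice of both sexes. The p-values below weigh a difference against the spread between libraries of a group, with 4 mice a group. The fits of IP over input treated the IP and input of a mouse as unpaired, except where a block by animal is named. The same holds for the difference between the fractions' treatment effects, except also where per-mouse differences are named.

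The comparison of PMCA with control IP asks how RNA pulled down with the tagged ribosomes differed in mice given the calcium pump. Calcium itself was not measured in these files. Most of the 35 genes had lower levels in PMCA IP. The 3 that differed most were the stress hormone gene Gdf15, the mitotic gene Ckap2 and the death gene Pmaip1 (Noxa), at 7.53-fold, 3.94-fold and 3.12-fold lower, and the cell-cycle inhibitor Cdkn1a was 1.69-fold lower. Trp53 itself overlapped between the groups. In a bulk library, fewer cells of a type and less RNA per cell cannot be told apart. All 35 members passed the filter on low values (at least 10 reads in at least 4 libraries). The difference was below 0 for 30 of 35, with a median of -0.31 on the log2 scale against -0.012 over all 15663 genes tested. By limma with Benjamini-Hochberg adjustment at 0.05, 18 of 35 members were called lower, where 10.1% of all genes tested were, and 1 was called higher, where 9.56% were. For 20 of 35 members each PMCA library was lower than each control library, against 14.3% of all genes. Because the choice of members may have drawn on this contrast, nothing is read from these shares.

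**Figure D1:**
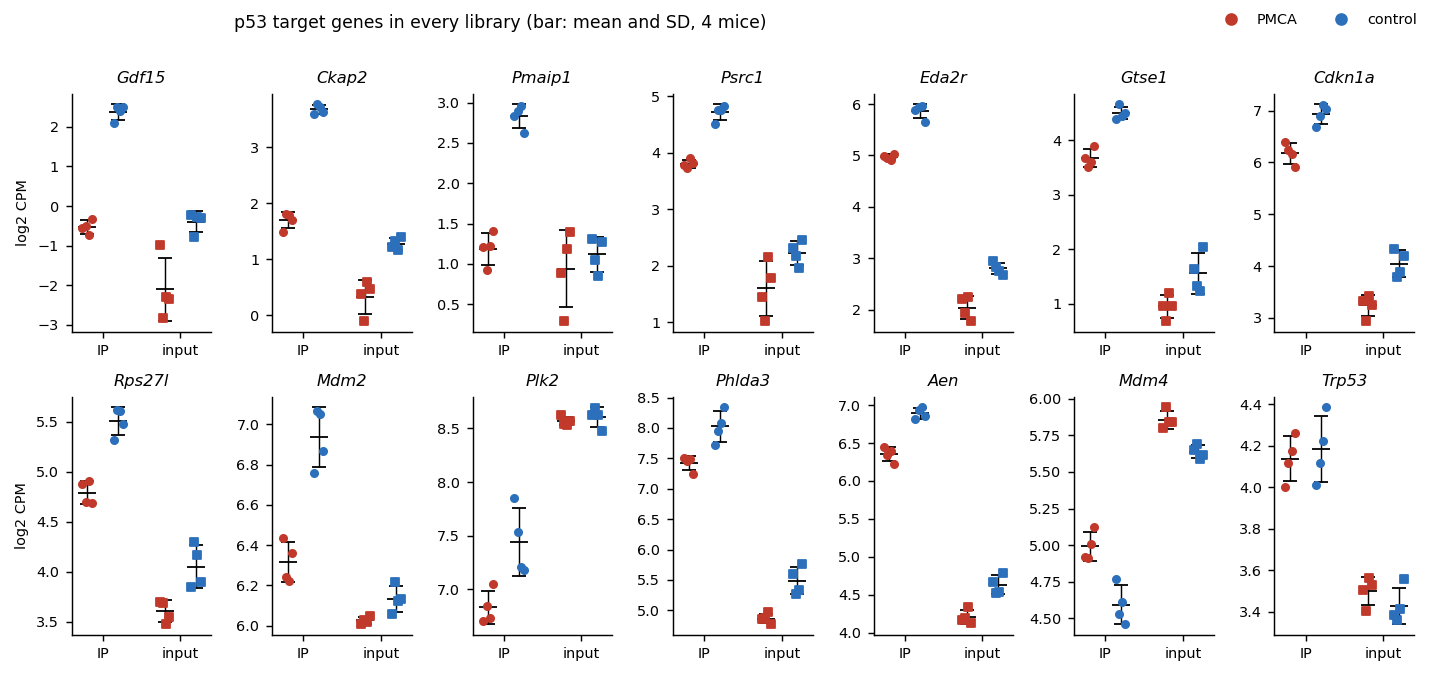
Level in log2 CPM (vertical axes, each on its own range) in each of the 16 libraries for the 12 members that differed most in IP and for Mdm4 and Trp53. Circles are IP and squares input, red is PMCA and blue control, and black bars give the mean and SD of 4 mice. Ckap2 lies at 1.49 to 1.81 in PMCA IP and at 3.59 to 3.76 in control IP.

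Among the regulators, Trp53 (chromosome 11, 69580348 to 69591873, GRCm38.p6, as are all positions below) lay at 4.00, 4.12, 4.18 and 4.26 log2 CPM in PMCA IP, against 4.01, 4.12, 4.23 and 4.38 in control IP. The groups overlapped throughout, with a difference of -0.047 (SE 0.095). Trp53 input levels were 3.51, 3.40, 3.56 and 3.53 in PMCA mice and 3.38, 3.36, 3.41 and 3.56 in control mice, which overlapped too (0.072, SE 0.074). The ligase gene Mdm2 (chromosome 10, 117688875 to 117710758), both brake and target of p53, stood at 6.43, 6.24, 6.22 and 6.36 in PMCA IP, against 6.76, 7.06, 7.05 and 6.87 in control IP. Every PMCA IP library lay below every control IP library, and the difference was -0.62 (SE 0.084), or 1.54-fold lower. Mdm2 in input also kept the groups apart, but by a small step, with 6.01, 6.03, 6.02 and 6.05 in PMCA mice and 6.06, 6.22, 6.12 and 6.13 in control mice (-0.11, SE 0.043). Mdm4 (chromosome 1, 132986105 to 133030587), which blocks the activating region of p53, went the other way, at 4.92, 4.91, 5.01 and 5.12 in PMCA IP and 4.77, 4.53, 4.61 and 4.46 in control IP. It was the 1 member called higher in IP (0.40, SE 0.083). Without PMCA 3 and control 4 together no member was called higher, where 654 of all genes were in place of 1497. With the set of animal numbers as a block 2 members were. Mdm4 inputs were also apart, at 5.80, 5.94, 5.84 and 5.84 in PMCA mice and 5.65, 5.69, 5.59 and 5.62 in control mice (0.22, SE 0.045).

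All 7 genes of cell-cycle arrest and mitosis were lower in PMCA IP, with a median difference of -0.75 against -0.012 over all genes. The choice of members may have drawn on this contrast, so nothing is read from this. Ckap2 (chromosome 8, 22168149 to 22185819), a microtubule-associated protein of the mitotic spindle, lay at 1.49, 1.81, 1.79 and 1.70 log2 CPM in PMCA IP, against 3.59, 3.76, 3.71 and 3.62 in control IP. The gap between the groups was wider than the range within either, and the difference was -1.98 (SE 0.10). Ckap2 input levels were 0.37, -0.10, 0.59 and 0.46 in PMCA mice and 1.21, 1.32, 1.16 and 1.39 in control mice, on 41 to 68 and 84 to 116 reads a library. Those groups were apart as well (-0.94, SE 0.18). Psrc1 (chromosome 3, 108383804 to 108388231), which helps spindle assembly, stood at 3.78, 3.73, 3.90 and 3.81 in PMCA IP and 4.51, 4.76, 4.76 and 4.83 in control IP, with no overlap (-0.91, SE 0.085). In input its groups overlapped, at 1.44, 1.03, 2.15 and 1.78 in PMCA mice and 2.31, 2.17, 1.96 and 2.46 in control mice (-0.62, SE 0.21). Gtse1 (chromosome 15, 85859691 to 85876573), a microtubule protein that moves p53 out of the nucleus in dividing cells, lay at 3.67, 3.51, 3.60 and 3.90 in PMCA IP and 4.39, 4.66, 4.45 and 4.50 in control IP. Its groups were apart there (-0.83, SE 0.098) and narrowly so in input, at 0.95, 0.69, 1.20 and 0.96 in PMCA mice and 1.64, 1.32, 1.23 and 2.05 in control mice (-0.61, SE 0.19).

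Cdkn1a (chromosome 17, 29090979 to 29100722) encodes p21, the inhibitor of cyclin-dependent kinases through which p53 halts the cell cycle. It lay at 6.40, 6.25, 6.16 and 5.92 log2 CPM in PMCA IP, against 6.68, 6.90, 7.12 and 7.03 in control IP. The highest PMCA library was below the lowest control library, and the difference was -0.75 (SE 0.12). Cdkn1a in input showed the same separation at a lower level, 3.33, 2.94, 3.43 and 3.26 in PMCA mice and 4.34, 3.79, 3.89 and 4.19 in control mice (-0.81, SE 0.13, 1.75-fold lower). Plk2 (chromosome 13, 110395044 to 110400844), a polo-like kinase that neurons also make in response to activity, was at 6.71, 6.84, 6.74 and 7.05 in PMCA IP and 7.85, 7.54, 7.21 and 7.18 in control IP. These groups were apart (-0.61, SE 0.14), while Plk2 input levels of 8.63, 8.54, 8.54 and 8.57 in PMCA mice and 8.63, 8.69, 8.62 and 8.47 in control mice overlapped (-0.035, SE 0.047). Ccng1, cyclin G1, which takes part in the feedback on Mdm2, ranged over 8.29 to 8.58 in PMCA IP and 8.77 to 8.96 in control IP (-0.43, SE 0.080). Its inputs were apart by about as much, at 6.81 to 6.98 in PMCA mice and 7.22 to 7.39 in control mice (-0.46, SE 0.052). Btg2, an antiproliferative gene, was the closest of the 7 to no difference in IP (3.61 to 3.87 in PMCA IP, 3.90 to 4.19 in control IP, difference -0.29, SE 0.092), and its inputs overlapped (-0.21, SE 0.14).

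The 11 death genes all had differences below 0 in IP, with a median of -0.33 against -0.012 over all genes. Of them 6 were called lower, where 10.1% of all genes were. The choice of members may have drawn on this contrast, so nothing is read from the count. Pmaip1 (chromosome 18, 66458604 to 66465558), the BH3-only protein Noxa that neutralises survival proteins of the Bcl-2 family, lay at 1.20, 0.93, 1.22 and 1.41 log2 CPM in PMCA IP, against 2.84, 2.90, 2.96 and 2.62 in control IP. No libraries overlapped, and the difference was -1.64 (SE 0.13). Pmaip1 input levels, on 54 to 109 reads a library in PMCA mice and 75 to 107 in control mice, were 0.89, 0.29, 1.19 and 1.39 in PMCA input and 1.31, 1.04, 0.85 and 1.27 in control input. There the groups overlapped (-0.18, SE 0.23). Eda2r (chromosome X, 97333837 to 97377234), a receptor of the tumour necrosis factor family, was at 4.99, 4.95, 4.92 and 5.02 in PMCA IP and 5.88, 5.94, 5.96 and 5.66 in control IP, a clear gap (-0.89, SE 0.075). Eda2r inputs were 2.20, 1.93, 2.24 and 1.78 in PMCA mice and 2.95, 2.83, 2.76 and 2.68 in control mice, apart again (-0.77, SE 0.12). Aen (chromosome 7, 78895927 to 78911209), a nuclease that digests DNA during apoptosis, lay at 6.45, 6.35, 6.40 and 6.22 in PMCA IP and 6.82, 6.94, 6.97 and 6.85 in control IP (-0.54, SE 0.067). It was also lower without overlap in input, at 4.17, 4.20, 4.33 and 4.12 in PMCA mice and 4.67, 4.53, 4.54 and 4.79 in control mice (-0.43, SE 0.074).

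The other 8 death genes differed less. Bbc3 (Puma), a BH3-only protein like Noxa, ranged over 2.65 to 3.05 log2 CPM in PMCA IP and 3.16 to 3.53 in control IP, without overlap (-0.47, SE 0.12), and overlapped in input (-0.21, SE 0.12). Trp53inp1, a stress protein that binds p53 and autophagy proteins, overlapped in IP through control 4 (6.90 to 7.17 in PMCA IP, 7.05 to 7.53 in control IP, difference -0.42, SE 0.11). Ei24, a membrane protein of the endoplasmic reticulum, was lower without overlap in both fractions by a small amount (-0.23, SE 0.071, in IP and -0.14, SE 0.039, in input). Bax, which opens the mitochondrial outer membrane, was apart only in input (-0.24, SE 0.053), with a difference of -0.29 (SE 0.10) in IP. The death receptor genes Fas and Tnfrsf10b (Trail receptor) overlapped in IP, with differences of -0.27 (SE 0.14) and -0.33 (SE 0.13). So did Perp, a membrane protein of cell adhesion and apoptosis (-0.31, SE 0.13), and Apaf1, the core of the apoptosome (-0.17, SE 0.073).

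The 5 repair genes showed no common direction in IP, with 3 differences below 0 and 2 above. Polk, a polymerase that copies past damaged bases, was the 1 called lower, where 10.1% of all genes were. It lay at 4.43 to 4.49 log2 CPM in PMCA IP and 4.69 to 5.03 in control IP (difference -0.36, SE 0.081). Ercc5, a nuclease of nucleotide excision repair, was lower without overlap but by little (-0.18, SE 0.060), and the damage sensor Xpc differed by -0.075 (SE 0.059). Ddb2, which finds ultraviolet damage, lay higher without overlap and was not called (1.82, 1.90, 2.03 and 1.77 in PMCA IP, 1.60, 1.39, 1.65 and 1.67 in control IP, difference 0.30, SE 0.12). Rrm2b, the p53-controlled subunit of ribonucleotide reductase, differed by 0.058 (SE 0.11). In input all 5 overlapped, with differences between -0.060 for Rrm2b and 0.11 for Ddb2.

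Of the 6 metabolism and stress genes, Gdf15 (chromosome 8, 70629393 to 70632470), a secreted stress hormone of the transforming growth factor beta family, had the largest difference of all 35 members. It lay at -0.56, -0.52, -0.74 and -0.32 log2 CPM in PMCA IP (29 to 39 reads), against 2.09, 2.50, 2.41 and 2.51 in control IP (216 to 281 reads). The groups were far apart, and the difference was -2.91 (SE 0.16), or -1.88 on the log2(CPM + 1) scale. Gdf15 input levels rested on 6 to 18 reads a library in PMCA mice and 21 to 36 in control mice. They were -0.97, -2.82, -2.29 and -2.34 in PMCA input and -0.22, -0.78, -0.28 and -0.30 in control input, apart but loosely measured (-1.71, SE 0.39), and -0.49 on the log2(CPM + 1) scale. The remaining 5 differed less. Dcxr, a carbonyl reductase, and Sesn2, a sestrin that restrains growth signalling under stress, were lower in IP without overlap but not called, with differences of -0.23 (SE 0.074) and -0.19 (SE 0.061). Fdxr, which passes electrons to mitochondrial steroid-making enzymes, differed by -0.28 (SE 0.11), Sesn1, another sestrin, by -0.056 (SE 0.095), and Ephx1, an epoxide hydrolase, by 0.057 (SE 0.073).

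Outside these roles stood 3 members. Rps27l (chromosome 9, 66944624 to 66949522), a ribosomal protein that limits Mdm2, lay at 4.87, 4.70, 4.90 and 4.69 log2 CPM in PMCA IP, against 5.32, 5.61, 5.60 and 5.47 in control IP. The groups were apart (-0.71, SE 0.086), and so were the inputs, at 3.70, 3.69, 3.48 and 3.55 in PMCA mice and 3.85, 4.30, 4.16 and 3.89 in control mice (-0.45, SE 0.10). Its near-identical relative Rps27 was counted at only 13 to 43 reads in PMCA IP and 20 to 36 in control IP, so how reads of the pair were split is uncertain. Phlda3 (chromosome 1, 135766085 to 135769134), which competes with the kinase Akt for membrane lipids, was at 7.51, 7.46, 7.49 and 7.25 in PMCA IP and 7.73, 7.95, 8.09 and 8.34 in control IP, without overlap (-0.60, SE 0.12). Phlda3 inputs of 4.85, 4.87, 4.97 and 4.78 in PMCA mice and 5.59, 5.26, 5.34 and 5.76 in control mice were also apart (-0.62, SE 0.096). Zmat3, an RNA-binding zinc finger protein, lay slightly higher in PMCA IP without overlap (0.23, SE 0.091) and was not called.

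**Figure D2:**
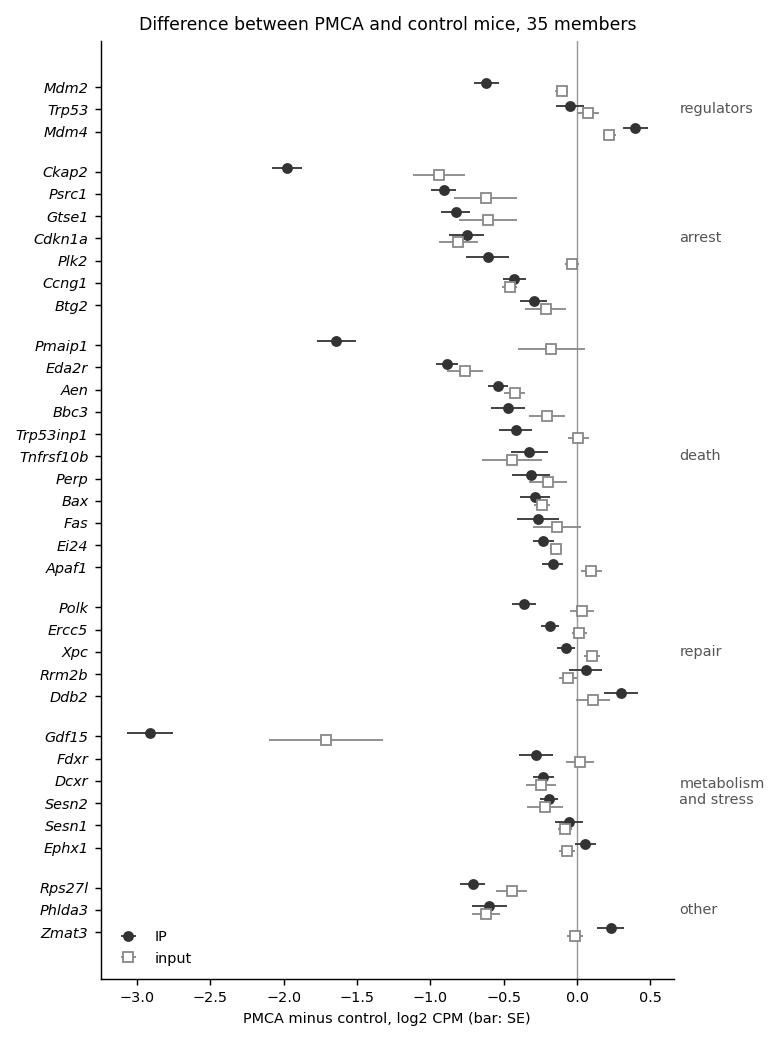
Difference of PMCA minus control mice in log2 CPM (horizontal axis) for all 35 members, grouped by role, with filled circles for IP and open squares for input and bars for the SE. Gdf15, Ckap2 and Pmaip1 lie farthest to the left in IP, and Mdm4 and Ddb2 farthest to the right.

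The same comparison in input asks whether the differences could be seen in RNA of the whole striatum. The difference was below 0 for 26 of 35 members, with a median of -0.18 against -0.0055 over the 16421 genes tested. Gdf15 entered this comparison through the control inputs, where it is high, as it passed the filter in only 5 libraries. Called lower were 5 members, Cdkn1a, Ccng1, Aen, Eda2r and Phlda3, where 0.0792% of all genes tested were (13 genes), and 0 were called higher, where 0.359% were. The 4 PMCA inputs lay below the 4 control inputs for 12 members, against 4.74% of all genes, and for 11 of these the IP groups were apart in the same direction. The choice of members may have drawn on this contrast too, and nothing is read from the shares. The number called depended on single mice. It was 10 without control 4, where 416 of all genes were called lower in place of 13, and 11 with the set of animal numbers as a block, where 243 of all genes were. It was 2 without control 2, 1 without any of control 1, control 3 or PMCA 1 to 4, and 0 without the mean-variance trend, where 4 or 5 of all genes were.

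Setting both fractions side by side, 7 members (Cdkn1a, Ckap2, Eda2r, Gdf15, Gtse1, Phlda3 and Psrc1) were lower by at least 0.5 on the log2 scale in IP and in input alike. Another 3 (Mdm2, Plk2 and Pmaip1) were lower by at least 0.5 in IP while their input difference was under 0.25 either way. No share of all genes at these limits is given, and the choice of members may have drawn on both contrasts. Nothing is therefore read from the counts. IP and input libraries come from the same mice and are not independent. The difference between the fractions' treatment effects, IP minus input, was -1.46 (SE 0.28) for Pmaip1, -1.04 (SE 0.19) for Ckap2 and -0.51 (SE 0.095) for Mdm2, which were the 3 members called lower, where 1.06% of all genes were called lower and 0.968% higher. With the animal as a replicate block 5 members were called lower, where 373 of all genes were in place of 177, and by per-mouse differences 2 were, where 46 of all genes were. The count was 0 without control 2, control 3 or PMCA 3, 1 without PMCA 1, and 0 without PMCA 3 and control 4 together. For Gdf15 the same difference was -1.20 (SE 0.42), for Plk2 -0.58 (SE 0.16) and for Cdkn1a 0.055 (SE 0.19), and none of these was called.

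The 5 members with a p53 element in their window differed in IP by -1.98 for Ckap2, -0.83 for Gtse1, -0.75 for Cdkn1a, -0.71 for Rps27l and -0.43 for Ccng1. All 5 were called lower in IP, as were 11 of the 22 members whose windows hold no such element, where 10.1% of all genes were. Among those 22, Gdf15, Eda2r, Psrc1 and Mdm2 differed by -2.91, -0.89, -0.91 and -0.62. Others of the 22 differed little or were higher, such as Trp53 (-0.047), Sesn1 (-0.056), Ephx1 (0.057) and Mdm4 (0.40). The choice of members may have drawn on these values, so nothing is read from setting them beside the elements.

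The comparison of IP with input asks which members are enriched on astrocyte ribosomes. The rule for the members names no value of IP over input, so it was tested, in each treatment separately. Some members were first noticed in these libraries, however, by a measure that is not recorded, so the tests are not independent evidence on the list. Most members were higher in IP. Of the markers, 12 of 12 astrocyte genes were called higher in both treatments, and so were 7 of 10 oligodendrocyte genes in PMCA mice (median 0.67) and 5 of 10 in control mice (median 0.51), with 0 and 1 called lower. Microglial markers were all called lower, as were 9 of 10 endothelial genes in both treatments and 10 and 9 of 12 neuronal genes in PMCA and control mice. The part of oligodendrocyte RNA in the values below was not tested. In PMCA mice 26 of 35 members were called higher, where 37.4% of the 16356 genes tested were, and 4 lower, where 39.3% were. Gdf15, 1 of the 26, entered this test through the IP libraries, where it is high, as it passed the filter in only 5 libraries. Its call in PMCA mice is therefore not read as a result. In control mice 29 of 35 were called higher, where 39% of the 16115 genes tested were, and 4 lower, where 38.5% were. The median of the members was 1.04 in PMCA mice and 1.45 in control mice on the log2 scale, against -0.042 and -0.0044 over all genes. In both treatments 17 members were called higher by at least 1 on the log2 scale and 11 by at least 2. No share of all genes at these limits is given, so nothing is read from those counts. Scaling by total reads without the deposited scaling factors lowered the median of all genes by 0.28 to 0.31. All genes then split into 4292 called higher and 8906 lower in PMCA mice, against 6121 and 6436 as deposited, and into 4494 higher and 8423 lower in control mice, against 6288 and 6198. Members called higher then numbered 21 in PMCA mice and 25 in control mice, with 7 and 6 called lower.

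The 5 members with the greatest rise in control mice were Tnfrsf10b, Eda2r, Gtse1, Cdkn1a and Dcxr. The Trail receptor Tnfrsf10b lay at 3.57, 3.13, 3.45 and 3.36 log2 CPM in PMCA IP and 0.31, -0.21, 0.39 and 0.24 in PMCA input, and at 3.40, 3.85, 3.84 and 3.72 in control IP and 0.84, 0.24, 0.69 and 0.72 in control input. IP was far above input in every mouse, and the fitted rise was 3.19 (SE 0.16, adjusted p = 2.19e-08, limma) in PMCA mice and 3.08 (SE 0.16, adjusted p = 2.13e-08, limma) in control mice. Eda2r IP levels exceeded input by 2.80, 3.02, 2.68 and 3.24 in PMCA mice and 2.93, 3.11, 3.20 and 2.98 in control mice, so the receptor was 7.65-fold and 8.31-fold enriched (adjusted p = 2.27e-09 and 5.39e-10, limma). Gtse1, known from dividing cells, exceeded its input by 2.72, 2.83, 2.40 and 2.93 in PMCA mice and 2.75, 3.34, 3.22 and 2.45 in control mice. It rose by 2.72 (SE 0.13, adjusted p = 1.89e-08, limma) in PMCA mice and 2.94 (SE 0.16, adjusted p = 4.41e-08, limma) in control mice. The p21 gene Cdkn1a was above input by 3.07, 3.30, 2.73 and 2.66 in PMCA mice and 2.35, 3.12, 3.23 and 2.84 in control mice, with fitted values of 2.94 (SE 0.12, adjusted p = 6.22e-09, limma) and 2.88 (SE 0.13, adjusted p = 7.97e-09, limma). These enrichments differed by 0.055 (SE 0.19) between treatments. The reductase gene Dcxr, at 6.42, 6.36, 6.45 and 6.22 log2 CPM in PMCA IP and 3.55, 3.49, 3.69 and 3.49 in PMCA input, and at 6.46, 6.63, 6.70 and 6.57 in control IP and 4.02, 3.76, 3.53 and 3.91 in control input, rose by 2.81 (adjusted p = 2.32e-10, limma) and 2.79 (adjusted p = 1.98e-09, limma).

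Only Plk2, Mdm4, Perp and Ddb2 were called lower in IP than in input, and they were so in both treatments and with the animal as a replicate block. Plk2 differed from its input by -1.73 (SE 0.073, adjusted p = 7.10e-09, limma) in PMCA mice and -1.16 (SE 0.13, adjusted p = 1.18e-05, limma) in control mice. Mdm4, the p53 inhibitor, differed by -0.87 (SE 0.061, adjusted p = 3.75e-07, limma) in PMCA mice and -1.04 (SE 0.070, adjusted p = 1.86e-07, limma) in control mice. Perp was at 1.16, 1.35, 1.30 and 1.51 log2 CPM in PMCA IP and 2.17, 2.03, 2.16 and 1.96 in PMCA input, and at 1.77, 1.75, 1.45 and 1.61 in control IP and 2.12, 2.62, 2.21 and 2.15 in control input. IP lay below input in every mouse, with fitted differences of -0.75 (adjusted p = 0.000184, limma) and -0.63 (adjusted p = 0.00184, limma). Ddb2 differed by -0.38 (adjusted p = 0.00775, limma) in PMCA mice and -0.57 (adjusted p = 0.00169, limma) in control mice. Next in order stood Btg2, whose IP and input levels differed by -0.11 (adjusted p = 0.478, limma) in PMCA mice and -0.033 (adjusted p = 0.767, limma) in control mice. With total reads Btg2 was called lower in both treatments.

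Trp53 rose modestly in IP, by 0.64 (SE 0.075, adjusted p = 2.04e-05, limma) in PMCA mice and 0.76 (SE 0.092, adjusted p = 1.95e-05, limma) in control mice. Mdm2 rose by 0.29 (SE 0.056, adjusted p = 0.000761, limma) in PMCA mice and 0.80 (SE 0.074, adjusted p = 2.31e-06, limma) in control mice, but with total reads the value in PMCA mice turned to -0.017. The 3 members called higher in control mice only were Pmaip1, Bbc3 and Xpc. Pmaip1 exceeded its input by 0.32, 0.63, 0.032 and 0.015 in PMCA mice and 1.53, 1.86, 2.12 and 1.35 in control mice, so that every control mouse exceeded every PMCA mouse. Its fitted values were 0.25 (adjusted p = 0.341, limma) in PMCA mice and 1.71 (adjusted p = 7.60e-07, limma) in control mice. Bbc3 gave 0.056 (adjusted p = 0.711, limma) in PMCA mice and 0.32 (adjusted p = 0.022, limma) in control mice, and the call in control mice was lost without control 2 or control 3 (adjusted p = 0.111 and 0.0539, limma). Xpc gave 0.10 (adjusted p = 0.145, limma) and 0.28 (adjusted p = 0.000514, limma) in PMCA and control mice. With total reads Bbc3 and Xpc were not called higher in control mice either, at 0.043 (adjusted p = 0.733, limma) and 0.0026 (adjusted p = 0.964, limma), and Xpc turned to -0.20 in PMCA mice. The calls of Rrm2b and Sesn1 in both treatments and of Apaf1 in PMCA mice were lost with total reads as well. Ercc5 and Ei24 turned as well, to -0.032 and -0.28 in PMCA mice, and Ei24 to -0.16 in control mice. The mitotic genes Ckap2 and Psrc1 rose by 1.36 (adjusted p = 3.85e-05, limma) and 2.21 (adjusted p = 2.78e-06, limma) in PMCA mice and by 2.40 (adjusted p = 4.34e-09, limma) and 2.49 (adjusted p = 1.16e-08, limma) in control mice.

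**Figure D3:**
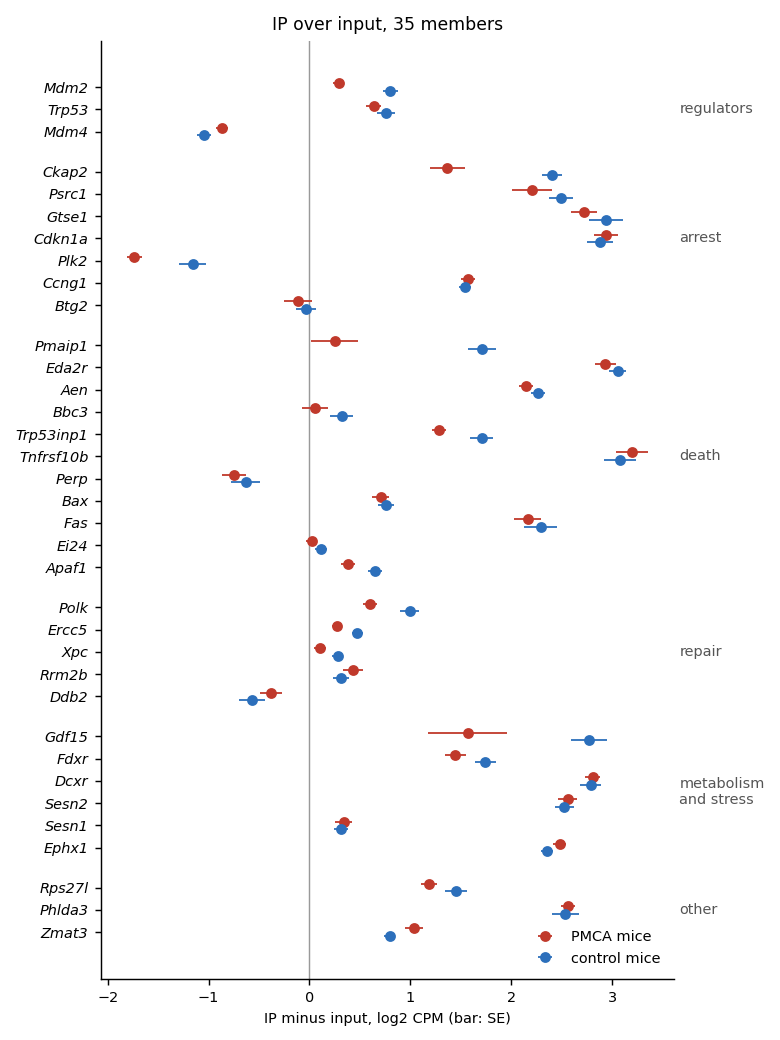
IP minus input in log2 CPM (horizontal axis) for all 35 members by role, red for PMCA and blue for control mice, with bars for the SE. Most points lie right of 0, and Plk2, Mdm4, Perp and Ddb2 lie left of it in both treatments.

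These mitotic members were set beside 30 genes of proliferation, a list also chosen with earlier results of these data known. In IP over input, 19 of the 30 were called lower and 3 higher in PMCA mice (median -0.82), and 19 were called lower and 4 higher in control mice (median -0.93). Of all genes, 39.3% were called lower and 37.4% higher in PMCA mice, and 38.5% and 39% in control mice. Cdk1, the kinase of mitotic entry, was lower, with differences of -1.92 (adjusted p = 6.66e-05, limma) in PMCA mice and -2.54 (adjusted p = 1.01e-05, limma) in control mice. Top2a, a topoisomerase of dividing cells, was lower as well, with -1.69 (adjusted p = 0.000168, limma) and -2.19 (adjusted p = 2.64e-07, limma). Between treatments, 4 of 29 proliferation genes tested were called lower in IP and 1 higher, where 10.1% and 9.56% of all genes were. In input 0 of 30 were called, and 0 passed at an unadjusted p under 0.05 in either direction. Lower in PMCA IP were Pcna, the sliding clamp of replication (-0.32, SE 0.060, adjusted p = 0.00701, limma), Ccne1, cyclin E1 (-0.41, adjusted p = 0.0364, limma), Mcm5, a replication helicase subunit (-0.45, adjusted p = 0.0496, limma), and Rrm1, a ribonucleotide reductase subunit (-0.24, adjusted p = 0.0237, limma). The marker Mki67 was higher (1.25, SE 0.25, adjusted p = 0.00879, limma), at 1.55 to 2.73 log2 CPM in PMCA IP and 0.81 to 0.97 in control IP. Pcna and Mki67 passed without each mouse in turn, but Mki67 did not pass without PMCA 3 and control 4 together (1.12, adjusted p = 0.054, limma), when 0 proliferation genes were called higher and 1 lower. Ccne1 did not pass without PMCA 1, 2 or 3 or control 1, 3 or 4, where the adjusted p reached 0.0918. Mcm5 did not pass without PMCA 1, 2 or 3 or control 1, 2, 3 or 4, where the adjusted p reached 0.133, nor Rrm1 without PMCA 1 or 2 or control 2 or 3, where the adjusted p reached 0.0729.

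A second list held 50 p53 targets that are not members, and 49 of them had a row and enough reads. It was chosen with earlier results of these data known and leaves out the members. Its tests are therefore not an independent check on p53 targets. In PMCA IP 10 of the 49 were called lower and 4 higher, where 10.1% and 9.56% of all genes were called. The median of the 49 was -0.11 against -0.012 over all genes. Gadd45a, a growth arrest and damage protein, was lowest (-0.82, SE 0.24, adjusted p = 0.0396, limma), at 1.94, 1.82, 2.60 and 2.71 log2 CPM in PMCA IP and 2.69, 2.90, 3.18 and 3.60 in control IP. The call failed without PMCA 1, 2 or 3 or control 2, 3 or 4, where the adjusted p reached 0.102. Rprm (reprimo), an inhibitor of mitotic entry, differed by -0.52 (SE 0.092, adjusted p = 0.0062, limma), and Slc19a2, a thiamine transporter, by -0.48 (SE 0.058, adjusted p = 0.0021, limma). Ptp4a3, a phosphatase, gave -0.43 (adjusted p = 0.00885, limma), and Tigar, which lowers glycolytic flux and is listed under the symbol 9630033F20Rik, gave -0.38 (adjusted p = 0.00816, limma). The 5 others called lower were Sac3d1, Pltp, Ppm1d, Bloc1s2 and Cdip1, by 0.21 to 0.38. With 1 of the 8 mice left out at a time they were not called in 5, 6, 5, 3 and 4 of the 8 fits, and without the mean-variance trend Pltp and Ppm1d were not called (adjusted p = 0.0736 and 0.0552, limma), nor was Gadd45a (adjusted p = 0.0675, limma). Of the 4 called higher, the phosphatase Ptprv rose most (1.05, SE 0.22, adjusted p = 0.0123, limma), on 188 to 438 reads a library in PMCA IP and 108 to 167 in control IP. Steap3, a reductase of iron uptake, rose by 0.53 (adjusted p = 0.00289, limma), the cyclin Ccnk by 0.53 (adjusted p = 0.00746, limma) and Kank3 by 0.37 (adjusted p = 0.0236, limma). Rprm, Slc19a2, Ptp4a3, Tigar, Ptprv, Steap3 and Ccnk passed without each mouse in turn, while Kank3 did not without PMCA 1, 2 or 3 or control 2 or 3, where the adjusted p reached 0.0678. The count called lower was 5 without control 2, 4 without control 3, 6 without PMCA 2, 4 without PMCA 3 and 3 without PMCA 3 and control 4 together. In the same order, all genes called lower numbered 806, 1011, 1025, 885 and 533, against 1585 in the main fit. Without PMCA 3 and control 4 together, Tigar and Ccnk missed the threshold (adjusted p = 0.0508 and 0.0522, limma), and Rprm, Slc19a2, Ptp4a3, Ptprv and Steap3 passed.

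In input 0 of these 49 targets passed by limma, while 9 were lower and 3 higher at an unadjusted p under 0.05. Without control 4, 1 was called lower and 2 higher. In IP over input the list was spread to both sides, with 23 higher and 13 lower in PMCA mice and 22 higher and 15 lower in control mice. Of all genes, 37.4% were called higher and 39.3% lower in PMCA mice, and 39% and 38.5% in control mice. Spata18, a mitochondrial quality gene, and Steap3 rose most in control mice, by 3.34 (adjusted p = 1.24e-06, limma) and 3.01 (adjusted p = 3.19e-09, limma), and Ptprv fell most, with a difference of -2.48 (adjusted p = 1.18e-07, limma). In PMCA mice the difference of Ptprv was -1.66 (adjusted p = 4.44e-05, limma).

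**Figure D4:**
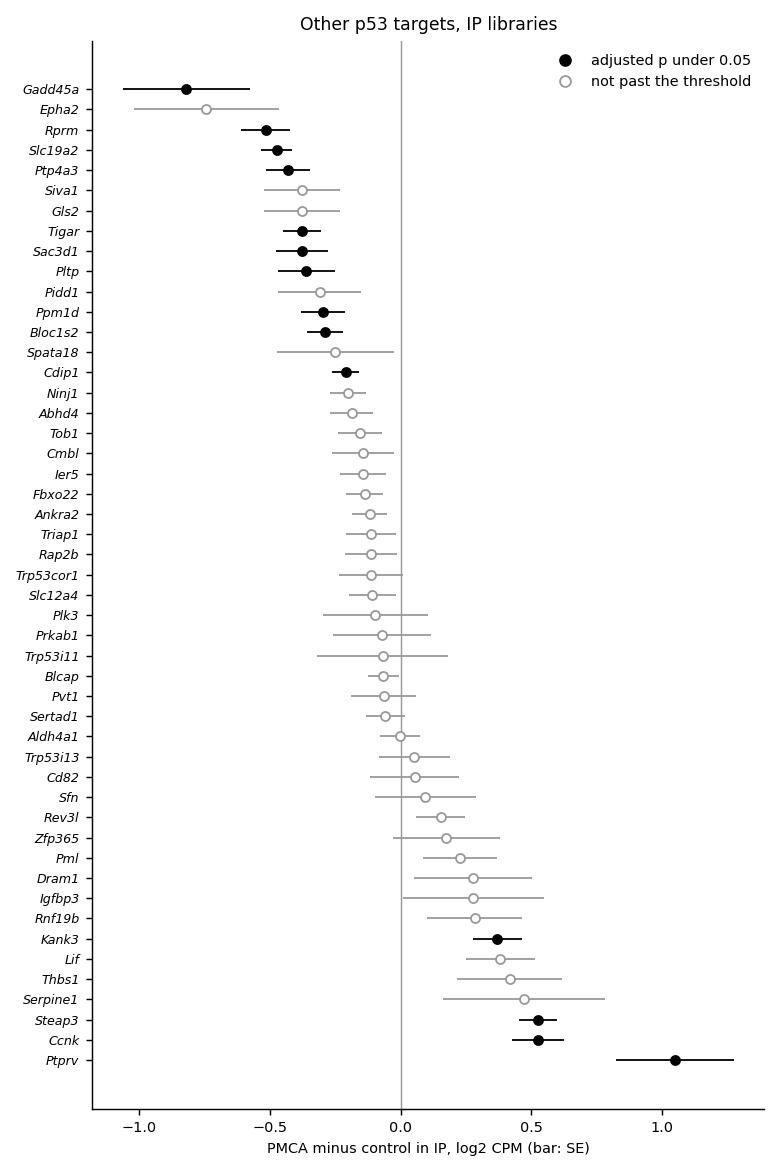
PMCA minus control in the IP libraries, in log2 CPM (horizontal axis), for the 49 other p53 targets in order of the difference, with bars for the SE. Filled points passed the adjusted p threshold of 0.05, 10 on the left and 4 on the right.

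Genes that act on p53 from upstream formed the last list, of 25, also chosen with earlier results of these data known. Of these, 24 were tested. In PMCA IP 3 were called lower and 2 higher, with a median of -0.021, where 10.1% and 9.56% of all genes were called. The counts lay near those shares, so nothing is read from them. In input 0 were called, while 2 were lower and 7 higher at an unadjusted p under 0.05. The 3 called lower in IP were Rpl11, Rpl5 and Rpl23, ribosomal proteins that bind Mdm2 when ribosome assembly is disturbed. Rpl11 lay at 6.21, 6.13, 6.19 and 6.12 log2 CPM in PMCA IP and 6.41, 6.64, 6.65 and 6.54 in control IP (-0.39, SE 0.067, adjusted p = 0.00506, limma). Rpl5 differed by -0.29 (adjusted p = 0.00819, limma) and Rpl23 by -0.24 (adjusted p = 0.0496, limma), and Rpl23 failed without PMCA 2, 3 or 4 or control 2, 3 or 4, where the adjusted p reached 0.128. Hipk2, a kinase that phosphorylates p53, was higher, at 8.02, 8.01, 7.89 and 7.60 in PMCA IP and 6.93, 7.08, 7.14 and 7.17 in control IP (0.80, SE 0.099, adjusted p = 0.00218, limma). The acetyltransferase Ep300 was higher as well (0.41, adjusted p = 0.0187, limma), but not without PMCA 1, 2 or 3 or control 2 or 3, where the adjusted p reached 0.0568. Rpl11, Rpl5 and Hipk2 passed without each mouse in turn. The damage kinases Atm and Atr differed by 0.056 (SE 0.062) and -0.19 (SE 0.064) in IP and were not called.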

How the data were processed

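RNA of IP and input from 8 mice was sequenced, 16 libraries in all. Per the labels' protocols, libraries were stranded and ribosomal RNA was removed. STAR, HTSeq, edgeR and limma were used with mm10, per the submitters' processing notes; the sources used here give no versions, annotation or use of strand in counting. The unit deposited is log2 CPM, computed by the authors per gene and library with a prior count and a scaling factor per library, as the values themselves show. Undoing both gave whole reads for 100% of values (tolerance 0.001), from which depth was computed. No value was imputed, and all 16 libraries entered the main fits.

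The design named 5 comparisons: PMCA over control in IP and in input, IP over input in each treatment, and the difference of the treatment effects. Each was fitted with limma 3.58.1 in R 4.3.3 (linear model on log2 CPM, empirical Bayes with a mean-variance trend, two-sided, Benjamini-Hochberg over all genes tested, threshold 0.05), on genes with at least 10 reads in at least 4 libraries. A fold on this scale slightly understates changes of genes with few reads. The script was tested on simulated data. The titles pair each IP with the input of its animal: over 16734 genes their deviations from group means correlated with r of 0.11 to 0.33 in 8 pairs, against -0.19 to 0.080 in 24 pairs of different mice. Replicates of a group differed by more than counting noise in every pair.

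The members and gene lists were chosen with earlier results of these data known. All 35 members are named; per-library values are given for Trp53, Mdm2, Mdm4, Cdkn1a, the 12 members of largest difference in IP and the members of largest rise and fall in IP over input, and up to 5 genes per direction from the other lists. Alternatives were total reads, other filters (none, 30 reads), no trend, voom weights on recovered reads, log2(CPM + 1), each mouse left out, the high-Xist mice left out, and blocks by animal or number set; other limits of the element search were added after the data were seen. Symbols and positions are from RefSeq, GRCm38.p6. The spread between mice, moderated over all genes by the empirical Bayes fit, set the SEs, and counting error was not modelled apart from it.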

Additional observations from a re-analysis of the deposited data

Results flagged for a closer look

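In 140 sets of 4 libraries (35 members in 4 groups), 5 had 1 library that stood apart by more than Dixon's 95% critical value allows, where chance gives about 1 in 20, or 7. In PMCA IP, library 4 was low for Bax (4.85 log2 CPM, the others 5.16 to 5.21) and Ei24 (6.31, the others 6.49 to 6.51) and high for Fas (4.01, the others 3.54 to 3.57). In control IP, library 4 was low for Trp53inp1 (7.05, the others 7.51 to 7.53). In control input, library 2 was low for Gdf15 (-0.78, the others -0.30 to -0.22).

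The interaction term of the limma fit, with the IP and input of a mouse unpaired, was called lower for 3 members, where 1.06% of all genes were. These were Pmaip1 (-1.46), Ckap2 (-1.04) and Mdm2 (-0.51), the effect being more negative in IP. As given above, the count changed with the pairing and with single mice left out. The choice of members drew on these libraries, so this is a description.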

How the results depend on the processing

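For PMCA over control in IP, the count of members called lower stayed within 1.5 times of 18 under every alternative run. With 1 mouse left out it was 13 to 20. All genes called lower numbered 1585 in the main fit, 806 without control 2 and 533 without the mice of high Xist. All genes called higher numbered 1497 in the main fit and 654 without those mice. Members called higher were 0 without the mice of high Xist (PMCA 3 and control 4) and 2 with the number set as a block. Other targets called lower were 3 without those mice and 4 to 11 with 1 mouse left out; called higher, 2 without those mice and 3 to 4 with 1 left out. In input, members called lower were 0 with no trend, 11 with the number set as a block and 1 to 10 with 1 mouse left out. All genes called lower there numbered 13 in the main fit, 5 with no trend, 243 with that block and 416 without control 4. All genes called higher there numbered 59 in the main fit and 92 with total reads. Members called higher in input were 1 with total reads, 1 with the number set as a block and 0 to 1 with 1 mouse left out; other targets called lower were 1 with that block and 0 to 1 with 1 left out; called higher, 1 without the mice of high Xist, 2 with the block and 0 to 2 with 1 left out. For the difference of effects, members called lower were 0 without the mice of high Xist, 5 with the animal as a replicate block and 0 to 4 with 1 mouse left out. All genes called lower numbered 177 in the main fit and rose with that block as well, as given above, so nothing is read from these counts. The animal as a replicate block changed no other count of members by over 1.5 times (29 higher and 4 lower in control mice, 26 and 4 in PMCA mice). No count of all genes under this block is given for IP over input, so nothing is read from it. Total reads raised the count of all genes called lower in IP over input, as given above. With total reads, members called lower in IP over input in PMCA mice were 7, and values turned for Mdm2 (-0.017), Ei24 (-0.28), Xpc (-0.20), Ercc5 (-0.032), Ppm1d (-0.062), Cdip1 (-0.12), Sertad1 (-0.011), Huwe1 (-0.13) and Pcna (-0.13) in PMCA mice and for Ei24 (-0.16), Sertad1 (-0.048) and Ccnk (-0.046) in control mice; the shift of the median of all genes accounts for turns of this size. The cause of the other changes was not tested. Gdf15 moved to -1.88 in IP and -0.49 in input with log2(CPM + 1). On that scale Ckap2 moved to -1.70 and Pmaip1 to -1.31 in IP. Depth in input was lowest for Gdf15, then Tnfrsf10b (38 to 59 reads in PMCA mice, 43 to 73 in control mice), Ckap2 and Pmaip1.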
